A study of Homo sapiens with 14 samples.

Results

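The genes of the T-cell receptor complex and the proteins that act directly beside it were followed through 14 RNA sequencing libraries of Jurkat cells, a human T-cell acute lymphoblastic leukaemia line. The 9 genes were chosen by symbol among the 61541 Ensembl genes of the count table, and each matched 1 row. They are the CD3 chains *CD3D*, *CD3E* and *CD3G*, the zeta chain gene *CD247*, the kinases *LCK*, *FYN* and *ZAP70*, and the adaptors *LAT* and *LCP2*. The libraries formed 5 groups. In 2 of them Jurkat cells carried a guide RNA against *KSR2*, a scaffold of the RAF, MEK and ERK kinases (guide 1, n = 3, and guide 2, n = 3), and their control was a non-targeting guide (NT, n = 2). The remaining libraries came from Jurkat cells treated with APS-2-79, an inhibitor of KSR (KSRi, n = 3), or with the solvent DMSO (n = 3). The extraction note, shared by all samples, speaks of a transduced Jurkat line. CRISPR knockout is named in the titles and CRISPRi in the design text, while NT libraries have names that refer to a hairpin, so the kind of guide experiment is uncertain. None of the sources used here gives the dose, the treatment time, the guide sequences or whether a group was 1 clone. Nothing states that replicates were grown as separate cultures, so each p-value measures a spread between libraries that may be technical.

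The T-cell receptor has no catalytic part of its own. Its antigen-binding chains associate with CD3 and zeta chains, whose cytoplasmic tails hold the immunoreceptor tyrosine-based activation motifs. LCK, and with it FYN, phosphorylates these motifs, ZAP70 docks on them, and ZAP70 then phosphorylates the adaptors LAT and SLP-76 (the product of *LCP2*). The adaptors assemble phospholipase C gamma and RAS activators, so this machinery stands upstream of the RAS, RAF, MEK and ERK cascade in T cells. Jurkat cells are a standard model in which these steps were worked out.

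Library totals ran from 21710466 to 45897075 counts. *KSR2* stood at 0.453 to 0.664 CPM (a gene's counts relative to the total of its library, with totals scaled by the TMM method) with guide 1 and at 0.730 to 0.822 CPM with guide 2, against 28.97 and 30.08 CPM with NT. It did not pass the test with the inhibitor (log2 change −0.11, edgeR adjusted p = 0.276). All 11 T-lineage markers examined exceeded 1 CPM in every group. They include *CD3D*, *CD3E*, *CD3G* and *CD247* of the 9 genes, and *TRAC*, *CD2*, *CD5* and *CD28* of the pathway lists below. They are therefore no separate check on those genes. Of 5 B-cell markers *CD79A* alone did so, of 4 NK-cell markers *NCAM1* alone, and of 4 fibroblast and epithelial markers *COL1A1* alone. Of 6 myeloid and 4 erythroid markers 0 reached 1 CPM. In all tests a gene was called at an adjusted p under 0.05 (edgeR quasi-likelihood test, Benjamini-Hochberg adjustment over 18963 genes), and all 9 genes passed the filter on low counts.

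*CD3D*, *CD3E* and *CD3G* lie together on chromosome 11, *CD3D* and *CD3G* on opposite strands with 1600 bases between their annotated 5′ ends. In GRCh38 *CD3E* spans chr11:118304545-118316175 (plus strand), *CD3D* chr11:118338954-118342744 (minus) and *CD3G* chr11:118344344-118355161 (plus). *CD247* spans chr1:167430640-167518610 (minus), *LCK* chr1:32251239-32286165 (plus), *FYN* chr6:111660332-111873452 (minus) and *ZAP70* chr2:97713560-97739862 (plus). *LAT* spans chr16:28984826-28990783 (plus) and *LCP2* chr5:170246237-170298227 (minus). Windows of 250 bases before a RefSeq start site (GRCh38.p14) were matched by symbol for 7 of the 9 genes, all but *CD3E* and *CD3G*. Those printed belong to the genes whose level differed between the control groups NT and DMSO, with that of *CD3D*, the neighbour of *CD3G*. For *FYN* 1 of 4 windows and for *LAT* 1 of 2 is shown. Capitals mark matches, on either strand, to 4 motifs of factors active in T-lineage cells. These are AGATAA for GATA factors, CAGNTG for the E-box, TGNGGT as a loose form of the RUNX motif, and AGGAAG for ETS factors. Other forms of the GATA, E-box and ETS motifs were not searched and are not marked, so their absence is not shown. TGNGGT is looser than the RUNX core TGTGGT or TGCGGT, since N stands for any base. Read on either strand, the RUNX marks are TGTGGT in *CD3D* and upstream *LCK* and TGCGGT in *FYN*. In *CD247*, *LAT* and *LCP2* they are only TGGGGT, which is outside that core. *CD3D* is chr11:118342706-118342955 (minus strand), *CD247* chr1:167518530-167518779 (minus), the upstream *LCK* window chr1:32251015-32251264 (plus) and the downstream one chr1:32273871-32274120 (plus). *FYN* is chr6:111873453-111873702 (minus), *LAT* chr16:28984802-28985051 (plus) and *LCP2* chr5:170297778-170298027 (minus).
CD3D: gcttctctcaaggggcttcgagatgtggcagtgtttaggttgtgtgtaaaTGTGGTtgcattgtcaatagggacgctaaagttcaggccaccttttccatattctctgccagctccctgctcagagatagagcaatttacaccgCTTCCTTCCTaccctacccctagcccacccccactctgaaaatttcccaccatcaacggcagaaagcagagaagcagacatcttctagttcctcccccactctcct
CD247: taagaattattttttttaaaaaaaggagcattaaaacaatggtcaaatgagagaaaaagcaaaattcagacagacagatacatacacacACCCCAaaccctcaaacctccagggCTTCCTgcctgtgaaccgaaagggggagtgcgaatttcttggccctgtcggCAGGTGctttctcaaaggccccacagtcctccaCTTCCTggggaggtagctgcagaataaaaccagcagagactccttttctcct
LCK, upstream: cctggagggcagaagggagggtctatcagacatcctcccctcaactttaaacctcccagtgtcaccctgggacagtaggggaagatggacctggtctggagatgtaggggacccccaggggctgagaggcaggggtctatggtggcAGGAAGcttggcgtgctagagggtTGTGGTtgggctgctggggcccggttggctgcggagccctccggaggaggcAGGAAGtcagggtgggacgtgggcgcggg
LCK, downstream: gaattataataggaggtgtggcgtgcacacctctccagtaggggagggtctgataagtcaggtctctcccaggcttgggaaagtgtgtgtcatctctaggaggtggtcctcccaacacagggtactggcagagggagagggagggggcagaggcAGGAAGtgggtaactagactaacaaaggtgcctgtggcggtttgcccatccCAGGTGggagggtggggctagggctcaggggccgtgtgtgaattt
FYN: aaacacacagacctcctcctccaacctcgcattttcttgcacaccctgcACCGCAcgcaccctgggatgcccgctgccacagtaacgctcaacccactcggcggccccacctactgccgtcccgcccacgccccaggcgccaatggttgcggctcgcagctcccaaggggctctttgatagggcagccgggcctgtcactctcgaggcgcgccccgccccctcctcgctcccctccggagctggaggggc
LAT: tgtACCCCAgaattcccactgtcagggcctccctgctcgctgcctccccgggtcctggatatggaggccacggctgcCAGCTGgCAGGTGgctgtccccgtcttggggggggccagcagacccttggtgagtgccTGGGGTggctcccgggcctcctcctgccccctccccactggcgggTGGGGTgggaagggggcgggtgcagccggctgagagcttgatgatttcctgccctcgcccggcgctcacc
LCP2: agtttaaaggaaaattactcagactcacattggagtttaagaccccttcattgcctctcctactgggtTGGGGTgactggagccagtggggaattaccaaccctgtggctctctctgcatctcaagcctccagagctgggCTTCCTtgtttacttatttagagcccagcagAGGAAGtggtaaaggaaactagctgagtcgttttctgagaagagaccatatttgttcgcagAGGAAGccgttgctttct

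Over all 14 windows of the 7 genes, a GATA match stood in 1, an E-box in 6, the loose RUNX form in 10 and an ETS match in 6. Over 35116 promoter windows of this length 9.2% held the GATA motif, 42.5% the E-box, 37.7% the loose RUNX form and 28.7% the ETS motif. Windows with the RUNX core alone were not counted. Windows of 1 gene can overlap and are not independent, and a run of letters is not a binding site. In the *CD3D* window 2 ETS matches overlap each other, and in the *LAT* window a CAGCTG counts as an E-box on both strands.

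Levels differed widely among the 9 genes. Per kilobase of annotated exon in DMSO, *CD3D* stood highest at 261 ± 9.66 CPM per kb (SD, n = 3). *LCK* followed at 183 ± 7.84, *CD3E* at 117.5 ± 1.499, *ZAP70* at 109 ± 2.94 and *CD3G* at 64.2 ± 2.89 CPM per kb. *CD247* stood at 31.8 ± 2.38, *FYN* at 15.5 ± 0.457 and *LCP2* at 13.98 ± 0.315 CPM per kb. *LAT* was lowest at 0.927 ± 0.0887 CPM per kb. Within DMSO each neighbouring pair in this order was separated library by library. With guide 1 and guide 2 the ranges of *LCK* and *CD3E*, and of *CD3E* and *ZAP70*, overlapped, and in KSRi those of *LCK* and *CD3E* did. The order was otherwise shared, except that *FYN* stood above *CD247* in the guide groups and NT and below it in KSRi and DMSO. Averaged over all libraries, *CD3D* exceeded 99.6% of 18361 tested genes with a known length and *LAT* 36%. Dividing by the longest coding transcript instead, a choice made after the values were seen, placed *LCK* (282) level with *CD3D* (282) and *ZAP70* (228) above *CD3E* (216 CPM per kb) in DMSO.

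*LAT* was the one member of the group with few reads, 42 to 410 counts per library. In GENCODE 29 its exons share 2112 of 4430 bases with ENSG00000261067 on the same strand and 454 with ENSG00000261552 on the other. These had 0 to 2 and 0 to 1 counts per library in the table. No source used here says how shared reads were counted, so the level of *LAT* is uncertain.

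**Figure D1:**
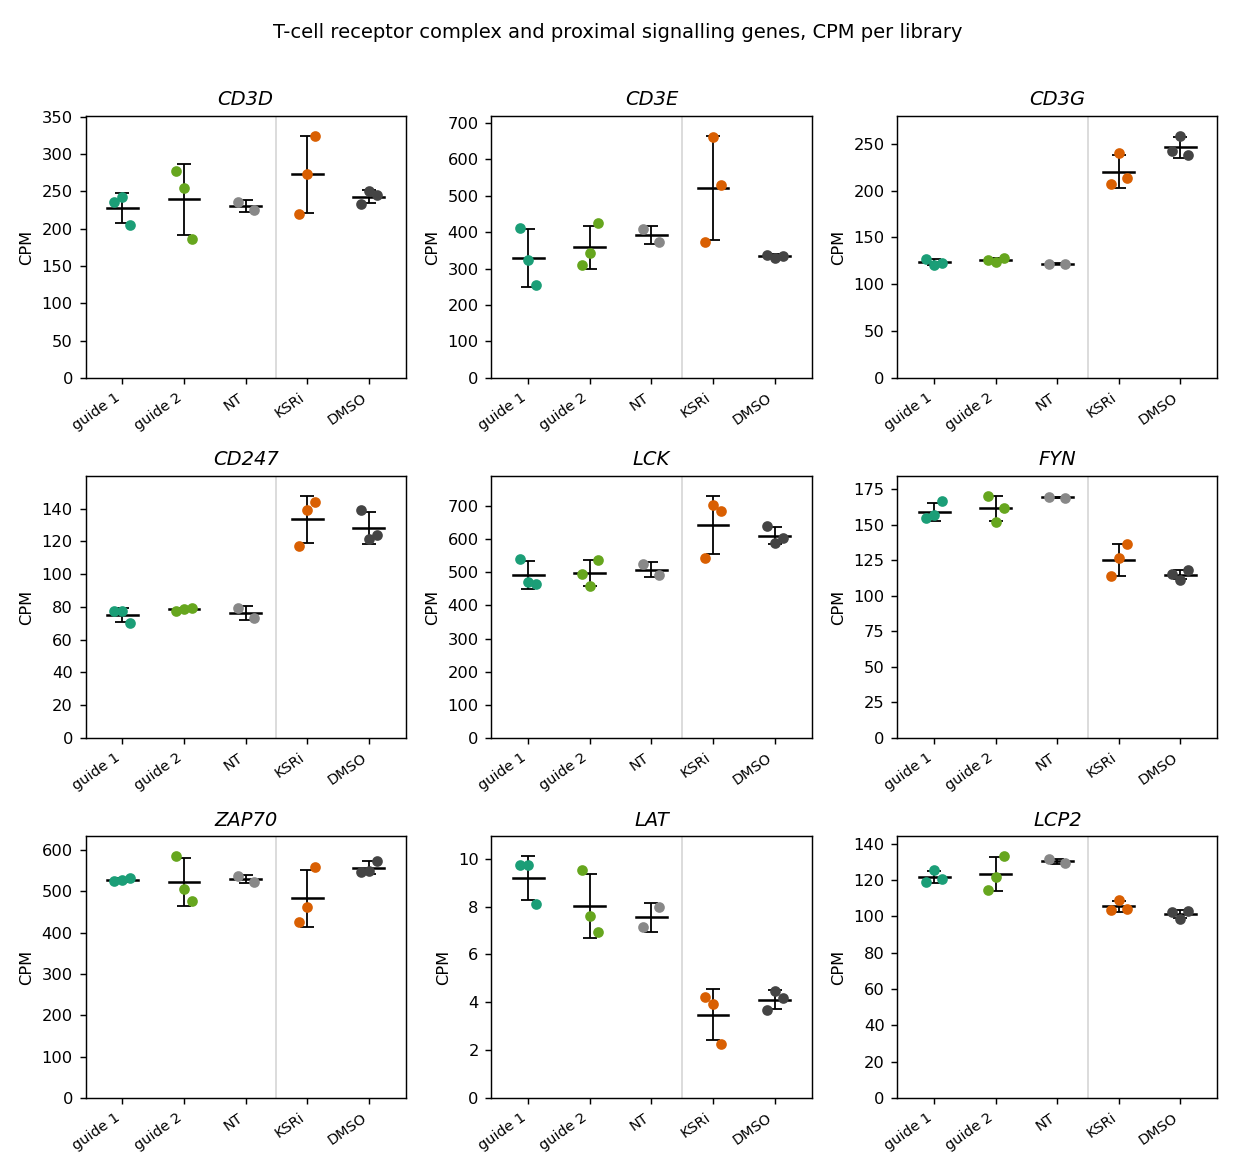
CPM of each of the 9 genes (vertical axes, from 0) in every library of the 5 groups (horizontal axes), points being libraries and bars the mean with its SD. *CD3G* and *CD247* sit lower, and *FYN*, *LAT* and *LCP2* higher, in guide 1, guide 2 and NT than in KSRi and DMSO, and *CD3E* spreads from 373 to 660.2 CPM in KSRi.

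The comparison of KSRi with DMSO asked whether the inhibitor altered the receptor genes. Of the 9 genes 1 rose, *CD3E*, and 0 fell, where 40.7% of all tested genes were called (22% higher and 18.7% lower). The median log2 change of the 9 was 0.06, beside 0.02 over all tested genes. At an unadjusted p under 0.05 there were 3, *CD3E* and the lower *CD3G* and *ZAP70*, where 9251 of all 18963 tested genes were. In RNA of whole cultures, fewer cells carrying a transcript and less of it per cell cannot be told apart.

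*CD3E*, the epsilon chain that pairs with both other CD3 chains, stood at 373, 660.2 and 530.3 CPM in KSRi, against 338, 329 and 336 CPM in DMSO. Each KSRi library lay above each DMSO library, but KSRi spread widely and DMSO hardly at all. The fitted level was 1.56 times that of DMSO, a log2 change of 0.64 with an SE of 0.18 (edgeR adjusted p = 0.00834). Without KSRi replicate 2, the highest, the log2 change was 0.43 and no longer passed (edgeR adjusted p = 0.0656). With no filter on low counts the edgeR adjusted p was 6.45e-13. Over the other alternatives and left-out libraries the adjusted p ran from 0.000113 to 0.0656.

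The partners of *CD3E* in the complex did not pass. *CD3D*, the delta chain, had 220.0, 274 and 324 CPM in KSRi, against 233, 249.7 and 246 CPM in DMSO. KSRi values lay on both sides of the DMSO ones (log2 change 0.17, 95% interval −0.12 to 0.45). *CD3G*, the gamma chain, had 207, 240.4 and 214 CPM in KSRi, against 242, 259 and 238 CPM in DMSO. The groups overlapped at one library each, and the log2 change was −0.16 (SE 0.07, edgeR adjusted p = 0.0601). DESeq2 (adjusted p = 0.0272), limma-voom (0.0487), edgeR with RLE factors (0.0445), with a filter of 5 CPM (0.0256), and without KSRi replicate 2 (0.0156) called it lower. *CD247*, whose zeta chain carries most of the activation motifs, had 117, 139 and 144 CPM in KSRi, against 139, 121 and 124 CPM in DMSO. The groups overlapped and the 95% interval of the log2 change was −0.11 to 0.23.

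Among the kinases 0 of 3 passed. *LCK*, the Src-family kinase that starts the cascade, had 543, 703 and 685 CPM in KSRi, against 639, 588 and 604 CPM in DMSO. One KSRi library lay below DMSO and the others above (log2 change 0.08, 95% interval −0.13 to 0.28). *FYN*, its relative, had 114, 126 and 136 CPM in KSRi, against 116, 111 and 118 CPM in DMSO (log2 change 0.13, 95% interval −0.02 to 0.27). Without KSRi replicate 1 *FYN* passed (log2 change 0.19, edgeR adjusted p = 0.018), as did *CD3D* (0.30, adjusted p = 0.0445). *ZAP70*, the kinase that docks on the phosphorylated chains, had 427, 463 and 559 CPM in KSRi, against 547, 549.9 and 574 CPM in DMSO. KSRi reached into the DMSO range with 1 library (log2 change −0.21, SE 0.09, edgeR adjusted p = 0.0831). Without KSRi replicate 3, that library, *ZAP70* was called lower (log2 change −0.32, adjusted p = 0.006), and it was also called lower with no filter on low counts (−0.23, adjusted p = 0.0208).

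The adaptors did not pass either. *LCP2*, whose SLP-76 protein joins the LAT complex to its effectors, had 104, 109 and 104 CPM in KSRi, against 102, 98.7 and 103 CPM in DMSO. The ranges did not overlap but lay close (log2 change 0.06, 95% interval −0.07 to 0.20). Non-overlapping ranges were found for 2 of the 9 genes, *CD3E* and *LCP2*, and for 46.9% of all tested genes. *LAT*, the membrane scaffold, had 4.23, 3.93 and 2.26 CPM in KSRi, against 3.69, 4.46 and 4.17 CPM in DMSO (log2 change −0.20, 95% interval −0.58 to 0.19). KSRi replicate 1 held the lowest KSRi value for 8 of the 9 genes. The share of mitochondrial transcripts was 2.51% in it, 2.06% in replicate 2 and 1.12% in replicate 3, against 1.27% to 1.45% in DMSO, and its part in these values was not tested. The summed level of the 4 fibroblast and epithelial markers was 8.69 to 13.2 CPM in KSRi, against 6.09 to 6.62 CPM in DMSO, nearly all of it *COL1A1*, and its part was not tested either.

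The comparisons of the guides with NT asked whether loss of *KSR2* transcript altered the same genes. Of the 9 genes 0 passed by edgeR with guide 1, with guide 2 or with both together, where 0.00527%, 0.0105% and 0.0158% of all tested genes were called. At an unadjusted p under 0.05 there were also 0 in each, where 880, 683 and 788 of all 18963 tested genes were. DESeq2 and limma-voom called 0 of the 9. The median log2 change of the 9 with both guides was −0.01, beside −0.004 over all tested genes. Log2 changes with both guides ran from −0.19 for *CD3E* (95% interval −0.56 to 0.18) to 0.18 for *LAT* (−0.15 to 0.50).

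The CD3 and zeta chains were spread as follows. *CD3G* had 127, 120.4 and 123 CPM with guide 1 and 126, 124 and 128 CPM with guide 2, against 121 and 122 CPM with NT. These 8 values lay within a few CPM of each other, and the 95% interval of the log2 change with both guides was −0.10 to 0.18. *CD247* had 77.4, 77.3 and 70.1 CPM with guide 1 and 77.8, 78.9 and 79.2 CPM with guide 2, against 79.1 and 73.2 CPM with NT (95% interval −0.16 to 0.18). *CD3D* ranged from 205 to 243 CPM with guide 1 and from 186 to 278 CPM with guide 2, against 225 and 236 CPM with NT. *CD3E* ranged from 253 to 412 CPM with guide 1 and from 308 to 424 CPM with guide 2, against 374 and 409 CPM with NT. For *CD3D* and *CD3E* the NT values fell inside the range of the guide 2 libraries, and replicates of a guide differed more from each other than the group means did.

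For the kinases and adaptors both NT values fell within the range of the guide 2 libraries. *LCK* ranged from 464 to 540.2 CPM with guide 1 and from 458 to 538 CPM with guide 2, against 492 and 524 CPM with NT (95% interval of the log2 change −0.24 to 0.16). *ZAP70* ranged from 524 to 533 CPM with guide 1 and from 476 to 586 CPM with guide 2, against 522 and 536 CPM with NT (−0.20 to 0.18). *FYN* ranged from 154 to 166 CPM with guide 1 and from 152 to 170.2 CPM with guide 2, against 169.5 and 169 CPM with NT (−0.23 to 0.07). *LCP2* ranged from 119 to 125 CPM with guide 1 and from 115 to 133 CPM with guide 2, against 129 and 131 CPM with NT (−0.22 to 0.04). *LAT* ranged from 8.11 to 9.74 CPM with guide 1 and from 6.94 to 9.53 CPM with guide 2, against 7.13 and 7.96 CPM with NT. With guide 1 the libraries of *FYN*, *LAT* and *LCP2* did not overlap NT, 3 of the 9 genes where 27.1% of all tested genes did so. With guide 2 the same held for *CD3G*, 1 of the 9 genes where 21.1% of all tested genes did so. With both guides 0 of the 9 genes were free of overlap, beside 9.56% of all genes.

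Between the guides 0 of the 9 genes passed by edgeR (guide 2 against guide 1, 0.00527% of all genes called), and 0 by DESeq2 or limma-voom. At an unadjusted p under 0.05 there were 0, where 614 of all 18963 tested genes were. Log2 differences ran from −0.20 for *LAT* to 0.12 for *CD3E*. The 1 gene of the 9 without overlap was *CD247*, at 77.8 to 79.2 CPM with guide 2 against 70.1 to 77.4 CPM with guide 1, where 10.2% of all genes were without overlap.

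Whether the inhibitor effect differed from the guide effect was tested directly, each effect being taken against its own control. Those controls, DMSO and NT, differed at 65.8% of all tested genes. A difference between the effects cannot be told apart from what separates the controls. *CD3E* passed, with a difference of 0.83 on the log2 scale (SE 0.25, edgeR adjusted p = 0.0192), made of 0.64 with the inhibitor and −0.19 with both guides. Of the 9 genes 1 was called higher and 0 lower, where 28.6% of all tested genes were called (16.6% higher and 12.1% lower). Without KSRi replicate 2 the difference was 0.62 (edgeR adjusted p = 0.0636) and without NT replicate 1 it was 0.77 (adjusted p = 0.0871). For *CD3G* the difference was −0.20 (95% interval −0.39 to −9e-04, edgeR adjusted p = 0.123), and for the other 7 genes the intervals included 0.

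**Figure D2:**
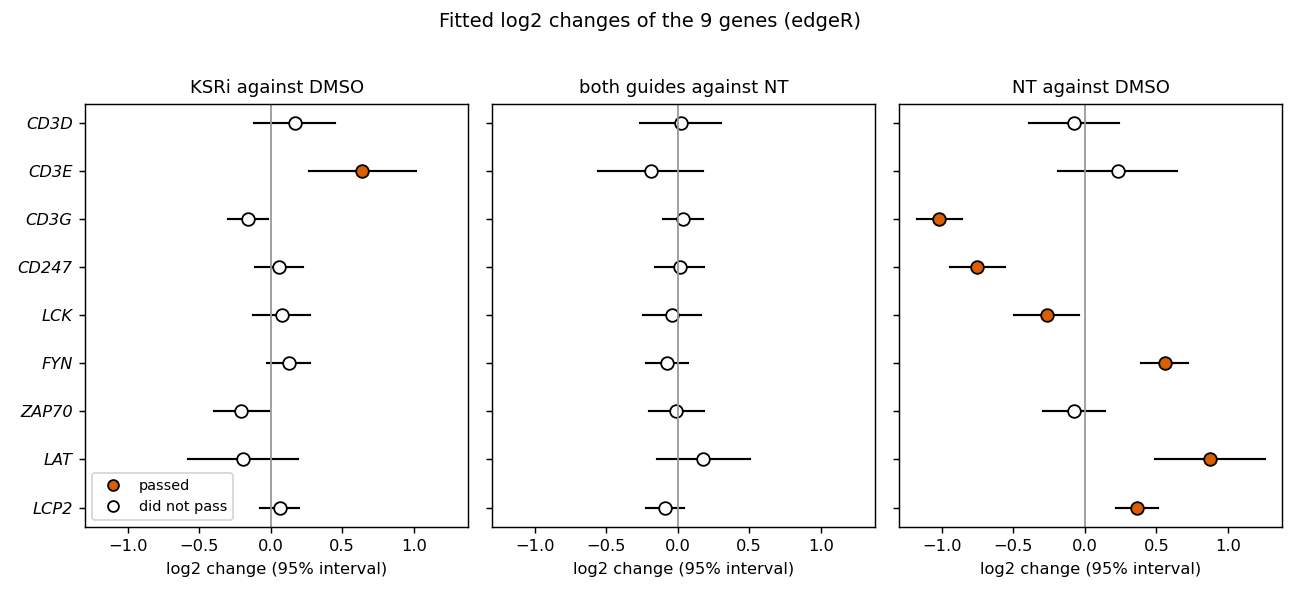
Fitted log2 changes of the 9 genes (horizontal axes) with 95% intervals in 3 comparisons, filled where the gene passed at an edgeR adjusted p under 0.05. One gene passed with the inhibitor, 0 with both guides and 6 between the control groups.

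The control groups, NT and DMSO, differed from each other at more of these genes than either perturbation did from its control, as they did over all tested genes. Of the 9 genes 3 were higher in NT (*FYN*, *LAT*, *LCP2*) and 3 lower (*CD3G*, *CD247*, *LCK*), where 65.8% of all tested genes were called (34.6% higher and 31.2% lower). With upper-quartile factors the calls over all genes were 8283 higher and 4187 lower, against 6568 and 5909 with TMM factors, and the changes of all genes shifted by a median of 0.22 on the log2 scale. By their labels NT and DMSO differ in both guide and solvent, and these cannot be told apart. Libraries without overlap were found for 8 of the 9 genes and for 79.3% of all genes.

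*CD3G* showed the largest difference of the 9. It had 121 and 122 CPM in NT, against 242, 259 and 238 CPM in DMSO. The groups were far apart, and the level was 2.02-fold lower in NT (log2 change −1.02, SE 0.08, edgeR adjusted p = 4.29e-09). *CD247* had 79.1 and 73.2 CPM in NT, against 139, 121 and 124 CPM in DMSO, a 1.68-fold lower level (log2 change −0.75, SE 0.09, edgeR adjusted p = 1.74e-06). Both were also low in the guide groups, as the values above show. *CD3D* had 236 and 225 CPM in NT, against 233, 249.7 and 246 CPM in DMSO, and the groups overlapped (95% interval of the log2 change −0.39 to 0.24). *CD3E* had 409 and 374 CPM in NT, against 338, 329 and 336 CPM in DMSO. The groups did not overlap, but the log2 change of 0.23 did not pass (SE 0.20, edgeR adjusted p = 0.318). It passed with upper-quartile factors (0.45, adjusted p = 0.0465), with no filter on low counts (0.26, adjusted p = 0.0119) and in a fit of NT and DMSO alone (0.26, adjusted p = 0.00148). Within the CD3 cluster *CD3G* was lower in NT while its neighbour *CD3D* was not called.

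*LCK* had 524 and 492 CPM in NT, against 639, 588 and 604 CPM in DMSO. The groups did not overlap and the call was narrow (log2 change −0.27, SE 0.11, edgeR adjusted p = 0.039). It was lost with upper-quartile factors (−0.05, adjusted p = 0.677), with a filter of 5 CPM (−0.13, adjusted p = 0.28), and without DMSO replicate 1 (adjusted p = 0.106), DMSO replicate 3 (0.0648), NT replicate 1 (0.073) or NT replicate 2 (0.198). *FYN* had 169.5 and 169 CPM in NT, against 116, 111 and 118 CPM in DMSO, 1.47-fold higher (log2 change 0.56, SE 0.08, edgeR adjusted p = 7.86e-06). *ZAP70* had 536 and 522 CPM in NT, against 547, 549.9 and 574 CPM in DMSO, close but without overlap (log2 change −0.07, 95% interval −0.29 to 0.14). With upper-quartile factors or a filter of 5 CPM the log2 changes of *CD3D* and *ZAP70* had the opposite sign.

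Both adaptors were higher in NT. *LAT* had 7.13 and 7.96 CPM in NT, against 3.69, 4.46 and 4.17 CPM in DMSO, 1.83-fold higher (log2 change 0.88, SE 0.18, edgeR adjusted p = 0.000456). *LCP2* had 131 and 129 CPM in NT, against 102, 98.7 and 103 CPM in DMSO, 1.29-fold higher (log2 change 0.36, SE 0.07, edgeR adjusted p = 0.000227). Of the markers of other cell types, the sum of the 5 B-cell genes was 46.9 to 68.0 CPM in NT, against 21.8 to 23.1 CPM in DMSO, nearly all of it *CD79A*. *MS4A1* stayed at or below 0.0914 CPM in every library, and the part of *CD79A* in these differences was not tested. The sum of the 4 NK-cell markers was 3.73 to 4.21 CPM in NT, against 1.89 to 2.98 CPM in DMSO, and mitochondrial transcripts made up 2.5% and 1.85% in NT, against 1.27% to 1.45% in DMSO, which was not tested either.

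Ratios of counts within a library do not depend on how libraries are scaled, so 4 were taken, chosen after the levels had been seen. *CD3G* over *CD3D* was 0.514 and 0.543 in NT, against 1.04, 1.04 and 0.968 in DMSO. In the guide groups it ran from 0.453 to 0.689, and in KSRi it was 0.940, 0.879 and 0.660. The log2 difference was −0.94 for NT against DMSO and −0.31 for KSRi against DMSO, each without overlap and each at the smallest p that an exact two-sided permutation test can give here (p = 0.1). *FYN* over *LCK* was 0.324 and 0.343 in NT, against 0.181 to 0.195 in DMSO, and 0.286 to 0.359 in the guide groups. In KSRi it was 0.180 to 0.210, overlapping DMSO (exact permutation p = 0.5). *CD247* over *ZAP70* was 0.148 and 0.140 in NT, against 0.216 to 0.255 in DMSO, and it was 0.258 to 0.301 in KSRi. *CD3E* over *CD3D* was 1.64 to 2.41 in KSRi, against 1.32 to 1.45 in DMSO, and ran from 1.11 to 2.27 with guide 2. With both guides against NT the log2 differences of the 4 ratios ran from −0.22 to 0.03 (exact permutation p = 0.5 to 0.929). Adjusted over the 24 comparisons of ratios, 0 of them passed (lowest adjusted p = 0.343). Between groups of 2 or 3 libraries an unadjusted p cannot fall under 0.1, so those comparisons could not pass whatever the ratios were. *CD247* over *ZAP70* and *CD3E* over *CD3D* also stood at that exact permutation p of 0.1, for NT and for KSRi against DMSO. So did *FYN* over *LCK* for NT against DMSO.

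**Figure D3:**
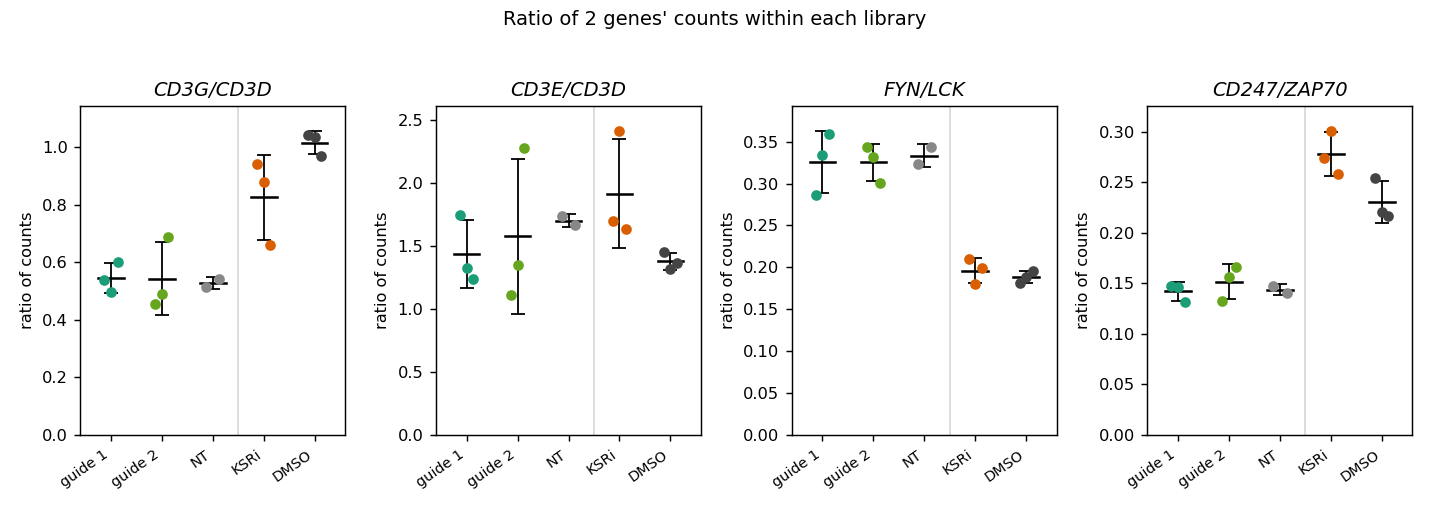
Ratio of the counts of 2 genes within each library (vertical axes, from 0) by group, points being libraries and bars the mean with its SD. *CD3G* over *CD3D* is near 0.528 in NT and near 1.02 in DMSO, and *FYN* over *LCK* is near 0.333 in NT and near 0.188 in DMSO.

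The other genes of receptor signalling were taken from 4 lists by role, 53 genes that were all tested. These lists were chosen with earlier results of these data known, so their counts are descriptive. With the inhibitor 21 rose and 4 fell, where 22% of all tested genes rose and 18.7% fell. The median log2 change was 0.15, beside 0.02 over all genes. In a fit of KSRi and DMSO alone 13 rose, where 3307 of all 16167 tested genes did. Without DMSO replicate 3, 13 rose and 2 fell, where 3455 and 2759 of all 18892 tested genes did. Without KSRi replicate 2, 13 rose, where 3433 of all 18918 tested genes did.

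Among 11 receptor chains and co-receptors 6 rose and 0 fell, beside 22% and 18.7% of all tested genes. *CD28*, the main costimulatory receptor, had 191 to 204 CPM in KSRi, against 125 to 133 CPM in DMSO (log2 change 0.60, SE 0.07, edgeR adjusted p = 6.9e-06). *PTPRC*, which encodes the CD45 phosphatase that keeps LCK ready to act, had 552 to 749 CPM in KSRi, against 475 to 513 CPM in DMSO (log2 change 0.32, SE 0.10, edgeR adjusted p = 0.0189). *CD8B* was scarce, at 2.36 to 3.15 CPM in KSRi and 0.761 to 1.424 CPM in DMSO (log2 change 1.397, SE 0.20, edgeR adjusted p = 4.99e-05). *TRAC*, *TRBC1* and *CD2* also rose. *TRBC1* and *TRBC2* are near copies, so how reads were split between them is uncertain.

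Among 12 adaptors 8 rose and 0 fell, beside 22% and 18.7% of all tested genes. *SH2D2A*, an adaptor that binds LCK, had 6.65 to 7.09 CPM in KSRi, against 4.30 to 4.87 CPM in DMSO (log2 change 0.59, SE 0.10, edgeR adjusted p = 0.00015). *THEMIS*, needed for thymocyte selection in mice, had 142 to 160.3 CPM in KSRi, against 119 to 124 CPM in DMSO (0.33, SE 0.06, edgeR adjusted p = 0.00057). *NCK2*, an adaptor between receptor and cytoskeleton, had 67.2 to 83.3 CPM in KSRi, against 55.6 to 63.6 CPM in DMSO (0.29, SE 0.08, edgeR adjusted p = 0.00792). *LAX1*, *LIME1*, *GRB2* and *NCK1* did not pass.

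Among 15 downstream effectors 5 rose and 0 fell, beside 22% and 18.7% of all tested genes. *NFATC2*, a calcium-regulated transcription factor, had 55.5 to 64.1 CPM in KSRi, against 37.7 to 40.8 CPM in DMSO (log2 change 0.62, SE 0.09, edgeR adjusted p = 3.29e-05). *PRKCQ* and *TXK* also rose. *PLCG1* (0.18) and *RASGRP1* (−0.08), which link the receptor to RAS, did not pass.

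Of 15 negative regulators 2 rose and 4 fell, beside 22% and 18.7% of all tested genes. *PTPN2*, a tyrosine phosphatase that acts on LCK and JAK kinases, had 90.0 to 103 CPM in KSRi, against 149 to 154 CPM in DMSO (log2 change −0.64, SE 0.07, edgeR adjusted p = 2.05e-06). *SLA*, an adaptor that promotes loss of the zeta chain, had 142 to 157 CPM in KSRi, against 188 to 211 CPM in DMSO (−0.41, SE 0.07, edgeR adjusted p = 0.000215). *PTPN6* and *PTPN22* also fell. *UBASH3B*, a phosphatase that acts on ZAP70, had 81.0 to 85.9 CPM in KSRi, against 65.8 to 69.5 CPM in DMSO (0.30, SE 0.06, edgeR adjusted p = 0.0012), and *CBLB* also rose.

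**Figure D4:**
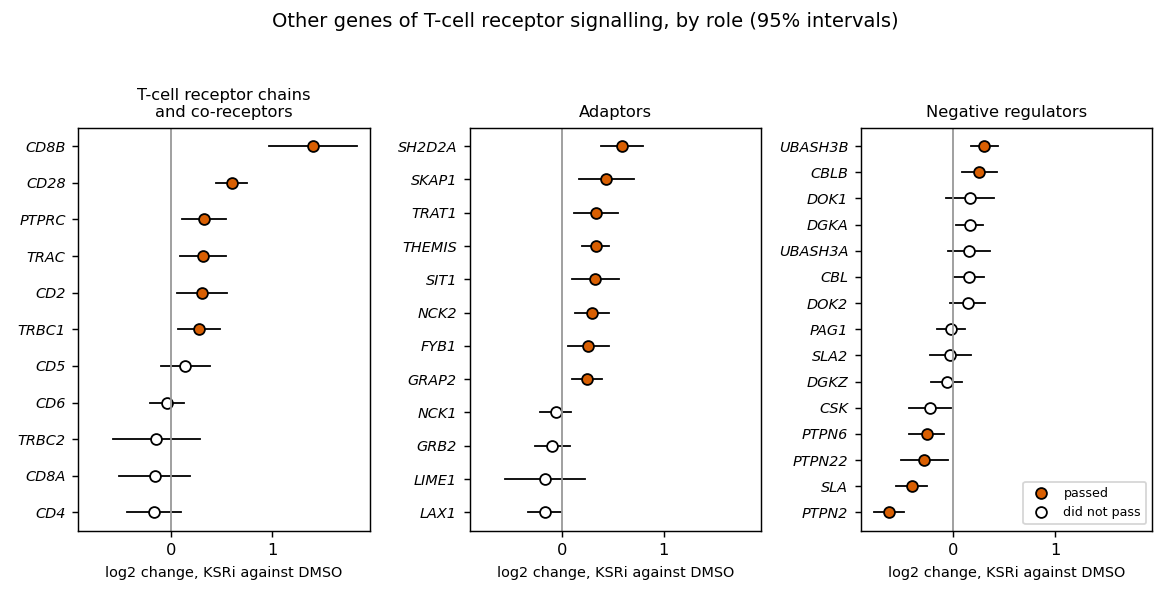
Log2 changes with 95% intervals, KSRi against DMSO (horizontal axes), of the other genes of receptor signalling in 3 of the role lists (receptor chains and co-receptors, adaptors, negative regulators), filled where the gene passed at an edgeR adjusted p under 0.05. Of the adaptors 8 of 12 rose and 0 fell, and of the negative regulators 2 of 15 rose and 4 fell. Over all tested genes 22% rose and 18.7% fell. The lists were chosen with earlier results of these data known.

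With both guides 0 of the 53 genes passed by edgeR, and DESeq2 and limma-voom called 0. An unadjusted p under 0.05 was found for 1 of the 53 and for 788 of all 18963 tested genes. With no filter on low counts edgeR called *TRBC2* higher (log2 change 0.42, SE 0.10, adjusted p = 0.0302), named after its value was seen. In that setting 18 of all 35794 tested genes were called higher and 23 lower. In the main fit *TRBC2* did not pass (0.41, SE 0.21, edgeR adjusted p = 0.989). Between the control groups 24 of the 53 were higher in NT and 10 lower, where 34.6% and 31.2% of all tested genes were. *PTPRC* averaged 1205 ± 1.34 CPM in NT (SD, n = 2), against 496 ± 19.4 CPM in DMSO (n = 3), a log2 change of 1.28 (SE 0.11, edgeR adjusted p = 3.68e-08). *THEMIS* averaged 80.3 ± 1.17 CPM in NT, against 121 ± 2.48 CPM in DMSO (−0.60, SE 0.07, edgeR adjusted p = 1.6e-06). The difference between the inhibitor and guide effects passed for 12 of the 53 genes upward and for 2 downward, where 16.6% of all tested genes passed upward and 12.1% downward, with *CD28* (0.55) and *NFATC2* (0.64) among the higher and *PTPN2* (−0.71) and *SLA* (−0.35) the lower ones.

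For each of the 9 genes the 3 most alike among 10815 other genes of at least 5 CPM were found by Pearson's r of log2 CPM over the 14 libraries. These r values also carry the difference between the guide and NT libraries on one side and the KSRi and DMSO libraries on the other. The closest matches were *USP14* (r = 0.996), *TTI1* (0.995) and *SLC29A1* (0.994) for *CD3G*, and *ICMT* (0.997), *RFC2* (0.995) and *SEC13* (0.995) for *CD247*. For *LCK* they were *RBM10* (0.979), *FAH* (0.978) and *TBC1D25* (0.976), and for *FYN* *PACSIN3* (0.983), *TRPC4AP* (0.982) and *ACAP1* (0.980). For *LCP2* they were *GLCCI1* (0.975), *EIF3H* (0.964) and *AFF2* (0.958), and for *LAT* *ANKRD20A19P* (0.976), *GET4* (0.975) and *ZNF767P* (0.972). The genes not called between NT and DMSO had lower r values. They were *IKBKG* (0.913), *CYBC1* (0.893) and *CACFD1* (0.879) for *CD3D*, *ZFPL1* (0.935), *YIPF3* (0.925) and *GPR153* (0.922) for *CD3E*, and *ANKS3* (0.948), *ZNF316* (0.904) and *DVL1* (0.873) for *ZAP70*.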

How the data were processed

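The authors deposited one table of raw counts, whole numbers for each Ensembl gene in the 14 libraries, with no scaling applied. GRCh38, STAR 2.7.11b and DESeq2 1.42.1 are listed, per the submitters' processing notes. No source used here names the counting program, a strand setting or an annotation release, so overlapping genes and near copies are uncertain. In edgeR 4.0.16 (R 4.3.3), filterByExpr kept 18963 genes, holding at least 99.93% of each library's counts. After TMM scaling, all 14 libraries entered one quasi-likelihood fit with a mean for each of the 5 groups and one shared spread. F tests were adjusted by Benjamini-Hochberg over all tested genes. An SE is the absolute log2 change divided by the square root of F. The procedure was also run on simulated counts with changes set in KSRi alone, which does not bear on the guide comparisons.

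Symbols came from a table of Ensembl identifiers, exon lengths from GENCODE 29 (GRCh38) and promoter windows from RefSeq (GRCh38.p14). The choices varied were the scaling (RLE, upper quartile), the low-count filter (none, or 5 CPM in 3 libraries), the tool (DESeq2 1.42.0, or voom in limma 3.58.1), the groups in the fit, a replicate block and each library in turn. No pair of replicates matched within sampling noise (chi-square over its degrees of freedom 5.83 to 49.94), and each counts as 1 sample. Named pathway genes are the 3 of each role list with the lowest p for KSRi against DMSO, with some genes not reported here, and others are named to complete a count. For likeness, CPM were logged with a prior count of 2. The members and lists were chosen with earlier results of these data known.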

Additional observations from a re-analysis of the deposited data

Results flagged for a closer look

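The effect of the inhibitor on *CD3E* differed from that of the guides by 0.83 on the log2 scale (edgeR adjusted p = 0.0192), a difference between the effects of 2 perturbations. Each was measured against its own control, and what separates the controls cannot be told apart from it. All 3 KSRi libraries were above all DMSO libraries, and guide libraries lay on both sides of NT. Over the alternatives and left-out libraries the difference ran from 0.62 to 1.02. Its edgeR adjusted p was 6.68e-11 with no filter on low counts, and the adjusted p ran from 0.000393 to 0.0871 in the other settings.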

How the results depend on the processing

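With the inhibitor 0 of the 9 genes fell, but 1 fell with RLE factors, with no low-count filter, with a filter of 5 CPM, with DESeq2 and with limma-voom. That gene was *ZAP70* with no filter and *CD3G* with the others. Over all tested genes 3706 of 18963 fell with RLE factors, 3754 of 35794 with no filter and 2901 of 11600 at 5 CPM. With DESeq2 3643 and with limma-voom 3630 of 18963 did. Leaving out 1 library gave 0 to 3 higher and 0 to 1 lower genes. For the difference between inhibitor and guide effects, leaving out 1 library other than NT gave 0 to 2 higher and 0 to 1 lower. Over all tested genes 2479 to 4132 were then higher and 1764 to 3245 lower. Of the 53 pathway genes 21 rose with the inhibitor, 13 in a fit of the groups compared and 13 to 23 without 1 library, and 2 to 5 fell without 1 library. Over all tested genes 3307 of 16167 rose in the fit of the groups compared. Without 1 library 3433 to 4912 of all tested genes rose and 2759 to 4016 fell. With both guides 1 rose with no filter, where 18 of all 35794 tested genes did. Without 1 library the log2 change with both guides crossed 0 for *CD3D* (−0.0404 to 0.084), *CD247* (−0.0438 to 0.0698), *LCK* (−0.0839 to 0.0061) and *ZAP70* (−0.0562 to 0.0098). It also changed sign for *CD247* with RLE factors (−1e-04) and for *ZAP70* with upper-quartile factors (2e-04). For NT against DMSO, *CD3D* changed sign to 0.141 with upper-quartile factors and 0.0643 with a filter of 5 CPM, and *ZAP70* to 0.1427 and 0.0659. The cause was not tested.

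Replicate numbers did not pair the samples (correlations of same-numbered deviations −0.10 to 0.11, and 0 of 3 KSRi libraries matched best with the DMSO library of their number). With the replicate block 1 gene rose and 0 fell with the inhibitor, as without it, and over all genes 3932 rose and 3285 fell, against 4175 and 3537. The *LCK* call between NT and DMSO was lost with it (log2 change −0.25, edgeR adjusted p = 0.0765). Depth limits *LAT*, at 42 to 410 counts per library.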
